A study of Mus musculus with 12 samples.

Results

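The 9 genes described here are those of the MHC class II pathway, taken by symbol from a fixed list out of 46983 genes in the count table. They are H2-Ab1, H2-Aa, H2-Eb1, Cd74, Ciita, H2-DMa, H2-DMb1, H2-DMb2 and H2-Oa. No cut-off on a measured value set the list, but it was chosen with earlier results of these data known. Their messenger RNA was counted in 12 libraries of mouse osteoclasts, the bone-resorbing cells, which had been grown from bone marrow monocytes. The question was which genes respond to material from dead osteocytes, the cells embedded in bone, and whether the response needs Mincle, a receptor for damaged-cell products encoded by Clec4e. The 4 groups, with 3 libraries each, were Mincle knockout (KO) cells given supernatant of necrotic osteocytes, KO cells given supernatant of viable osteocytes, C57BL/6 wildtype (WT) cells given necrotic supernatant, and WT cells given viable supernatant. The strain background of the KO cells is not given in the sources used here. All groups received 20 ng/ml M-CSF with 10 ng/ml RANKL, the cytokines that turn monocytes into osteoclasts, and a 24-hour exposure to supernatant that began on day 1, before RNA was taken on day 3. Necrosis was produced by withdrawing serum, and there was no group with starved medium alone, so products of dead osteocytes and a difference in serum cannot be told apart. Whether the 3 libraries of a group stem from different mice or cultures is not stated, and the p-values therefore describe the spread between these libraries, which may be technical.

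MHC class II molecules are heterodimers that present peptides from the endosome to CD4 T cells. H2-Aa and H2-Ab1 encode the alpha and beta chains of I-A, and H2-Eb1 the beta chain of I-E. Cd74 encodes the invariant chain, which escorts new dimers to the endosome, and H2-DMa, H2-DMb1 and H2-DMb2 encode chains of H2-M, which exchanges the remnant of the invariant chain for peptide, while H2-O, with H2-Oa as its alpha chain, restrains H2-M. Ciita encodes the transactivator that is recruited to class II promoters and sets their activity, and class II is an abundant product of dendritic cells and B cells and is inducible in macrophages.

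In both genotypes the classical chains, the invariant chain and the transactivator were lower in osteoclasts given necrotic supernatant. H2-Ab1, H2-Aa, H2-Eb1, Cd74 and Ciita passed the test in KO and in WT cells, H2-DMa passed in KO cells, and H2-DMb1, the more abundant H2-M beta gene, passed in neither, with 26.1 to 32.8 CPM (counts-per-million) in every library. KO cells given necrotic supernatant had the lowest mean level of each classical chain and of Cd74. The difference between the KO and the WT response did not pass the test for any of the 9 genes.

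Class II promoters share a module of short elements, the X box region bound by RFX and CREB-family proteins and the Y box bound by NF-Y, on which the Ciita protein acts. The bases before the start of 4 genes are shown because they place this module beside genes that fell (H2-Aa and H2-Eb1) and genes that did not pass the test (H2-DMb1 and H2-DMb2). Sequences are those of RefSeq on GRCm38.p6, given 5′ to 3′ on the strand of the gene, each covering the 150 bases before the RefSeq start. Capitals mark the Y box letters TGATTGG and the X-region letters TGACGTCA (a cyclic AMP response element) or GATGATGC, searched on both strands.
H2-Aa, chr17:34287824-34287973, minus strand: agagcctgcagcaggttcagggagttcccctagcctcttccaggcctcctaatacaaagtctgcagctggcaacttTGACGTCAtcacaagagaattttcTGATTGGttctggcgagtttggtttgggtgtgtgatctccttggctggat
H2-Eb1, chr17:34305717-34305866, plus strand: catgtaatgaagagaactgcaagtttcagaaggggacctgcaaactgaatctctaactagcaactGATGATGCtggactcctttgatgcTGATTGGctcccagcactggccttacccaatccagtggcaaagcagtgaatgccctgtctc
H2-DMb1, chr17:34153041-34153190, plus strand: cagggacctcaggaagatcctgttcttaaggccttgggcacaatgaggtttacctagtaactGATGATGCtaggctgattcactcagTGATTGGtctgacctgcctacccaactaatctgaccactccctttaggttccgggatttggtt
H2-DMb2, chr17:34145099-34145248, plus strand: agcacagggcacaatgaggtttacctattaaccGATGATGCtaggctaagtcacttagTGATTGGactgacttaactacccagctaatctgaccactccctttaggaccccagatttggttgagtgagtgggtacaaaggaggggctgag

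Counted from the start, the Y box lay at -50 to -44 in H2-Aa, -61 to -55 in H2-Eb1, -63 to -57 in H2-DMb1 and -92 to -86 in H2-DMb2. The X-region letters lay at -74 to -67 in H2-Aa (TGACGTCA), and as GATGATGC at -85 to -78 in H2-Eb1, -88 to -81 in H2-DMb1 and -117 to -110 in H2-DMb2. The motifs did not overlap each other, and their letters were chosen after the sequences had been seen. Across 32817 promoters of the same length, TGATTGG occurred in 5.698%, GATGATGC in 0.3443%, TGACGTCA in 1.362%, and the Y box together with either other motif in 0.1127%. Of the other members searched, H2-Oa held the Y box at -45 to -39 with neither other motif. The windows of the 2 starts of H2-DMa held none of the 3 motifs. They lay at chr17:34122682-34122831 and chr17:34125368-34125517, the first just beyond Brd2 (chr17:34112023-34122634, opposite strand). Sequence elsewhere in H2-DMa was not searched, so these windows do not show whether the gene holds the module at another place. Promoters of 6 of the 9 genes were searched. No entry was matched for H2-Ab1 and Ciita, and Cd74, on chromosome 18, was left out of the search, so these genes are named only. GENCODE M21 places the first base of H2-DMa, H2-DMb1, H2-DMb2 and H2-Oa upstream of these RefSeq starts, so the windows of these 4 genes lie wholly or partly within the annotated gene. A match is a description of letters in the window, and genes with the same motifs included genes that fell and genes that did not pass the test.

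The library totals ran from 16382366 to 49612055 counts, the deepest being WT viable replicate 3, and levels below are counts-per-million (CPM) scaled by TMM factors. All 9 genes passed the filter on low counts among 14153 genes tested. Clec4e averaged 1.94 ± 0.369 CPM in KO necrotic and 25.1 ± 2.98 CPM in WT necrotic libraries (SD, n = 3 each), and 1.88 ± 0.479 CPM in KO viable and 24.2 ± 1.71 CPM in WT viable libraries, so the genotype labels hold. The osteoclast label was borne out by its markers, whose summed level over 10 genes was 19580 to 20390 CPM in KO necrotic, 15465 to 15778 CPM in KO viable, 22105 to 23392 CPM in WT necrotic and 17498 to 17829 CPM in WT viable libraries. Replicates of every group differed by more than counting noise, with a chi-square per degree of freedom of 3.09 to 21.1 over pairs, so none was counted as a repeat of another.

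Per kilobase of exon in WT viable libraries, Cd74 had the highest level of the set at 117 CPM per kb, followed by H2-Eb1 at 30.2, H2-Ab1 at 24.4, H2-DMb1 at 18.0 and H2-Aa at 17.7 CPM per kb. H2-DMa reached 7.11 CPM per kb, Ciita 1.09, H2-DMb2 1.06 and H2-Oa 0.256 CPM per kb. The levels of H2-DMb1 and H2-Aa, and those of Ciita and H2-DMb2, lay within each other's spread. Per kilobase in KO necrotic libraries, H2-DMb1 had 17.004 CPM per kb against 16.2 for H2-Eb1, 12.7 for H2-Ab1 and 9.61 for H2-Aa. The H2-DMb1 and H2-Eb1 values were close. Without length H2-DMb1 stood below these chains, at 28.6 CPM against 31.5 for H2-Eb1, 32.6 for H2-Ab1 and 36.5 CPM for H2-Aa. The length used is the union of all annotated exons of a gene, not that of a single transcript. The order of genes per kilobase depends on this length. Among all genes tested in WT viable libraries, ranked by CPM without length, Cd74 exceeded 93.6% of genes, H2-Aa 76.3% and Ciita 36.7%, while H2-Oa exceeded 1.03%.

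**Figure D1:**
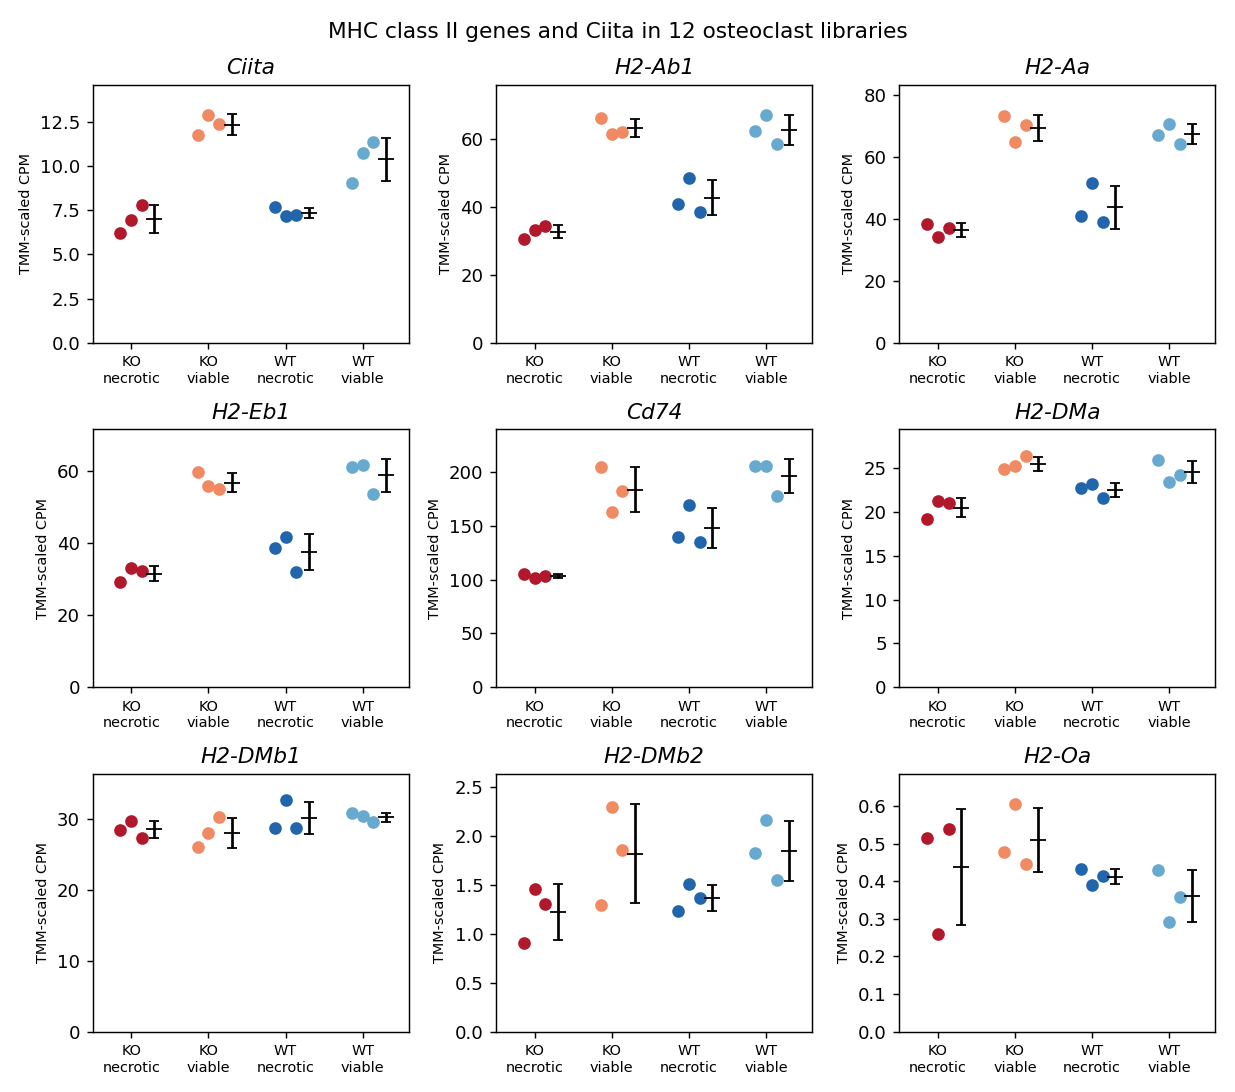
TMM-scaled CPM of the 9 genes in 12 osteoclast libraries, 1 point per library, grouped from left to right as KO necrotic, KO viable, WT necrotic and WT viable, with bars for the mean and SD of 3 libraries. H2-Ab1, H2-Aa, H2-Eb1, Cd74 and Ciita sit lower in both necrotic groups than in the viable group of the same genotype, and H2-DMb1 lies between 26.1 and 32.8 CPM in every library.

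H2-Ab1 (ENSMUSG00000073421, GRCm38 chr17:34257689-34269419, plus strand) encodes the I-A beta chain. It measured 30.5, 33.1 and 34.2 CPM in KO necrotic libraries, against 66.1, 61.3 and 62.0 CPM in KO viable libraries. In WT necrotic libraries it measured 40.9, 48.4 and 38.6 CPM, against 62.1, 67.04 and 58.5 CPM in WT viable libraries. Every necrotic library lay below every viable library, and the KO necrotic libraries also lay below all 3 WT necrotic ones. The level fell by 48.5% in KO cells (log2 fold change -0.96, SE 0.08, adjusted p = 4.09e-05) and by 31.7% in WT cells (log2 fold change -0.55, SE 0.08, adjusted p = 8.73e-04; edgeR quasi-likelihood test with Benjamini-Hochberg adjustment over all genes, as for every adjusted p below unless another test is named). In KO cells its p-value was the smallest of all 14153 genes, and in WT cells it ranked 58.

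H2-Aa (ENSMUSG00000036594, chr17:34282744-34287823, minus strand) encodes the alpha chain that pairs with H2-Ab1. It measured 38.3, 34.0 and 37.2 CPM in KO necrotic libraries, against 73.1, 64.7 and 70.3 CPM in KO viable libraries. The WT necrotic libraries held 40.7, 51.7 and 38.9 CPM, against 66.9, 70.7 and 64.2 CPM in WT viable libraries. Necrotic and viable libraries did not overlap in either genotype, and WT necrotic replicate 2 was the highest of the necrotic libraries, as for H2-Ab1. The log2 fold change was -0.93 (SE 0.09, adjusted p = 7.36e-05) in KO cells and -0.62 (SE 0.09, adjusted p = 8.41e-04) in WT cells.

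H2-Eb1 (chr17:34305867-34316674, plus strand) encodes the I-E beta chain, whose alpha partner is not transcribed in the H2b haplotype of C57BL/6 mice. It measured 29.1, 33.0 and 32.4 CPM in KO necrotic libraries, against 59.7, 55.8 and 54.9 CPM in KO viable libraries. In WT necrotic libraries it measured 38.8, 41.8 and 31.9 CPM, against 61.1, 61.7 and 53.5 CPM in WT viable libraries. The necrotic libraries again lay below the viable ones of their genotype, while KO necrotic and WT necrotic libraries overlapped. The log2 fold change was -0.85 (SE 0.09, adjusted p = 1.01e-04) in KO cells and -0.65 (SE 0.09, adjusted p = 6.31e-04) in WT cells. H2-Ea, the I-E alpha gene, had 0 counts in all 12 libraries, KO libraries included, which allows at most 0.0598 to 0.185 CPM per library, a limit of 3 counts that covers counting error only.

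Cd74 (GRCm38 chr18:60803848-60812652, plus strand), the invariant chain gene on another chromosome, was the most abundant of the set in every library. It measured 105, 102 and 103 CPM in KO necrotic libraries, against 205, 163 and 183 CPM in KO viable libraries. In WT necrotic libraries it measured 140, 169 and 135 CPM, against 206, 205 and 178 CPM in WT viable libraries. The 3 KO necrotic libraries lay close together and below all other libraries. Cd74 fell by 43.6% in KO cells (log2 fold change -0.83, SE 0.09, adjusted p = 1.05e-04) and by 24.4% in WT cells (log2 fold change -0.40, SE 0.09, adjusted p = 0.0108). The WT call was lost without WT viable replicate 2 (log2 fold change -0.37, adjusted p = 0.0585), where 385 of all genes were called, against 1318 with all libraries.

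Ciita (GRCm38 chr16:10480059-10528418, plus strand), the gene of the class II transactivator, was about as low per kilobase as H2-DMb2. It measured 6.21, 6.92 and 7.78 CPM in KO necrotic libraries, against 11.7, 12.9 and 12.3 CPM in KO viable libraries. In WT necrotic libraries it measured 7.66, 7.14 and 7.21 CPM, against 9.01, 10.7 and 11.3 CPM in WT viable libraries. The necrotic groups overlapped each other, whereas the KO viable libraries were all above the WT viable ones. The log2 fold change was -0.82 (SE 0.11, adjusted p = 5.35e-04) in KO cells and -0.51 (SE 0.11, adjusted p = 0.0103) in WT cells, and the WT call was lost without WT viable replicate 3 (log2 fold change -0.43, adjusted p = 0.0606). In that setting 603 of all genes were called, against 1318 with all libraries. Of the exon bases of Ciita, 3.45% are shared with Dexi on the opposite strand, and since no source used here gives the strand setting of the counting, reads there cannot be assigned.

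The H2-M and H2-O genes are given next. H2-DMa (chr17:34119541-34139101, plus strand), the H2-M alpha chain, measured 19.2, 21.2 and 20.97 CPM in KO necrotic libraries, against 24.8, 25.2 and 26.4 CPM in KO viable libraries. It measured 22.7, 23.2 and 21.6 CPM in WT necrotic libraries, against 25.9, 23.4 and 24.2 CPM in WT viable libraries. Neither pair of groups overlapped, but the gap between the WT groups was narrow. H2-DMa fell by 19.8% in KO cells (log2 fold change -0.32, SE 0.07, adjusted p = 0.0101), and in WT cells its log2 fold change was -0.13 (SE 0.07, adjusted p = 0.254). The KO call was lost without KO viable replicate 3 (log2 fold change -0.29, adjusted p = 0.05705) and without KO necrotic replicate 1 (log2 fold change -0.27, adjusted p = 0.0622). In these settings 501 and 484 of all genes were called, against 1052 with all libraries. H2-DMa shares 10.4% of its exon bases with Brd2 on the opposite strand, so its level is uncertain for the same reason as that of Ciita.

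H2-DMb1 (chr17:34153072-34160230, plus strand), an H2-M beta chain, measured 28.5, 29.8 and 27.4 CPM in KO necrotic libraries, against 26.1, 28.0 and 30.3 CPM in KO viable libraries. It measured 28.8, 32.8 and 28.9 CPM in WT necrotic libraries, against 30.9, 30.4 and 29.6 CPM in WT viable libraries. The groups overlapped in both genotypes. Its log2 fold change was 0.02 in KO cells (95% interval -0.13 to 0.17, adjusted p = 0.905) and -0.01 in WT cells (95% interval -0.16 to 0.14, adjusted p = 0.969). Both intervals exclude the log2 fold change of -0.40 of Cd74 in WT cells, the smallest among the 5 genes called in both genotypes.

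The neighbouring paralog H2-DMb2 (chr17:34143307-34151555, plus strand) held 20 to 78 counts per library. It measured 0.909, 1.46 and 1.31 CPM in KO necrotic libraries, against 1.29, 2.30 and 1.86 CPM in KO viable libraries. It measured 1.24, 1.51 and 1.37 CPM in WT necrotic libraries, against 1.82, 2.16 and 1.56 CPM in WT viable libraries. The WT groups did not overlap and the KO groups did. The log2 fold change was -0.57 in KO cells (95% interval -1.10 to -0.04, adjusted p = 0.188) and -0.39 in WT cells (95% interval -0.91 to 0.13, adjusted p = 0.345), neither past the threshold. H2-DMb1 and H2-DMb2 are close copies, and the handling of reads that map to both is not given in the sources used here, so the split of counts between them is uncertain.

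H2-Oa (chr17:34092340-34095234, plus strand), the alpha chain of H2-O, held 5 to 18 counts per library. It measured 0.514, 0.260 and 0.540 CPM in KO necrotic libraries, against 0.478, 0.605 and 0.445 CPM in KO viable libraries. It measured 0.432, 0.390 and 0.415 CPM in WT necrotic libraries, against 0.429, 0.292 and 0.359 CPM in WT viable libraries. The necrotic and viable libraries overlapped in both genotypes, and at this depth the 95% intervals of the log2 fold change, -0.91 to 0.58 in KO and -0.60 to 0.98 in WT cells, cover changes as large as those of the classical chains. An antisense gene, BC051537, covers 22.8% of the exon bases of H2-Oa.

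Set against all genes, the counts were as follows. Of the 9 genes, 6 were lower in KO necrotic against KO viable libraries and the other 3 did not pass, where 3.43% of all genes tested were called lower. In WT necrotic against WT viable libraries 5 were lower and 4 did not pass, where 4.50% of all genes were called lower. Every necrotic library lay below every viable one for 6 of 9 genes in KO cells, against 14.9% of all genes, and for 7 of 9 genes in WT cells, against 12% of all genes. The median log2 fold change of the 9 genes was -0.82 in KO and -0.40 in WT cells, and that of all genes was 0.00 in KO and -0.01 in WT cells. These were cultures measured in bulk, in which fewer cells with class II and less class II RNA per cell cannot be told apart.

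**Figure D2:**
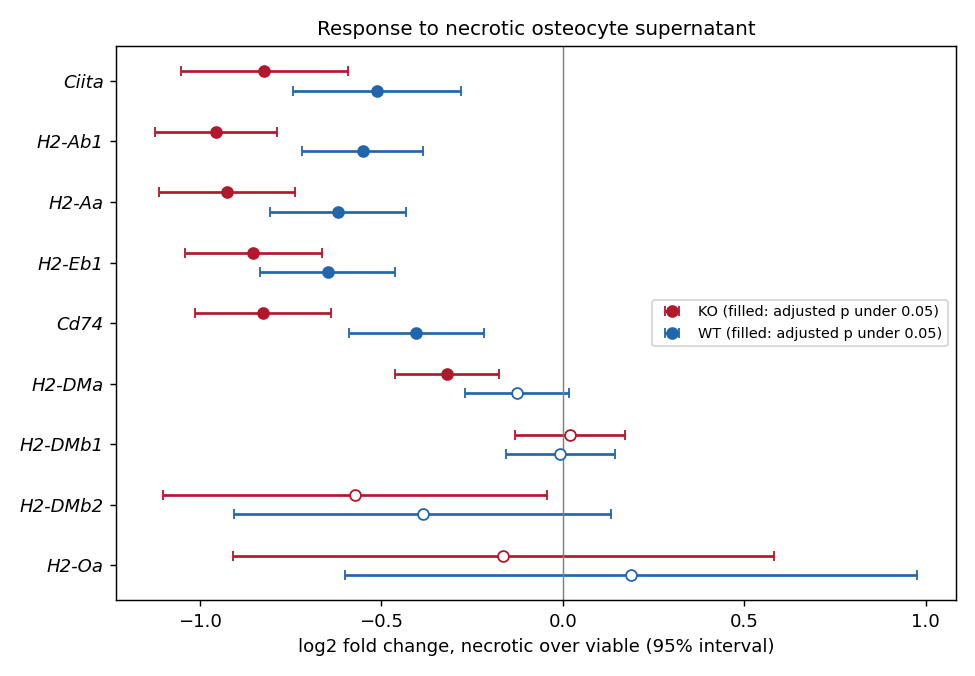
Log2 fold change of each gene, necrotic over viable supernatant, with its 95% interval, for KO (upper of each pair) and WT (lower); filled points passed an adjusted p of 0.05. The intervals of H2-Ab1, H2-Aa, H2-Eb1, Cd74 and Ciita lie below 0 in both genotypes, those of H2-DMb1 straddle 0, and those of H2-DMb2 and H2-Oa are wide.

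Whether the genes moved by the same amount was examined by taking all 36 pairs of the 9 genes as ratios in each library and permuting the supernatant labels within genotype (exact, two-sided, 400 arrangements, smallest possible p 0.005, Benjamini-Hochberg adjustment over 72 tests with the genotype tests). For supernatant, 11 of 36 ratios passed. H2-Ab1, H2-Aa, H2-Eb1, Cd74 and Ciita each fell relative to H2-DMa and relative to H2-DMb1, which made up 10 of them, and the other was H2-DMb1, which rose relative to H2-DMb2. On the log2 scale the necrotic minus viable difference was -0.79 for H2-Aa over H2-DMb1, -0.56 for H2-Aa over H2-DMa and 0.50 for H2-DMb1 over H2-DMb2 (each exact p = 0.005, adjusted p = 0.0327).

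The H2-Aa to H2-DMa ratio, per kilobase, averaged 1.62 ± 0.177 in KO necrotic, 2.47 ± 0.180 in KO viable, 1.76 ± 0.224 in WT necrotic and 2.50 ± 0.211 in WT viable libraries (SD, n = 3 each). For the 2 chains of I-A the ratio did not pass: the H2-Ab1 to H2-Aa ratio, per kilobase, averaged 1.33 ± 0.134 in KO necrotic, 1.35 ± 0.0498 in KO viable, 1.45 ± 0.0518 in WT necrotic and 1.37 ± 0.0283 in WT viable libraries, and its log2 difference was 0.02 (exact permutation p = 0.710, adjusted p = 0.792). Ciita relative to H2-Aa did not pass either (log2 difference of H2-Aa over Ciita -0.12, exact permutation p = 0.305, adjusted p = 0.457). For genotype, 0 of 36 ratios passed after adjustment. The smallest p of these was 0.010, for H2-Aa over Cd74 (log2 KO minus WT difference 0.20, adjusted p = 0.0554, exact permutation test).

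Over the 12 libraries the log2 CPM values of H2-Ab1, H2-Aa, H2-Eb1 and Cd74 had pairwise Pearson correlations of 0.931 to 0.984, a description over points that share the group differences. After subtraction of group means the range over these 6 pairs was 0.578 to 0.876, so libraries of the same group with more of one tended to hold more of the others. Over all 36 pairs the within-group values ran from -0.482 to 0.876 with a median of 0.217. These values carry no test. Of 12485 genes with at least 1 CPM on average, those most like the mean of the 4 genes over 12 libraries were Lsp1 (r = 0.985), an actin-binding protein of leukocytes, Cx3cr1 (r = 0.967), the fractalkine receptor of monocytes and macrophages, Ngp (r = 0.962), a granule protein of immature neutrophils, Cd300lg (r = 0.955) and Traf3ip3 (r = 0.947). Those most like Ciita were Siglech (r = 0.956), a marker of plasmacytoid dendritic cells, Oas3 (r = 0.951), an interferon-induced antiviral enzyme, Sgk1 (r = 0.948), a serum-responsive kinase, Cd4 (r = 0.941) and Vcan (r = 0.936), the gene of versican.

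Lsp1 averaged 91.1 ± 6.13 CPM in KO necrotic and 146 ± 11.1 CPM in KO viable libraries (SD, n = 3 each; log2 fold change -0.68), and 110 ± 12.9 CPM in WT necrotic and 145 ± 14.5 CPM in WT viable libraries (log2 fold change -0.39). Oas3 averaged 43.8 ± 6.62 CPM in KO necrotic and 79.4 ± 11.9 CPM in KO viable libraries (log2 fold change -0.86), and 42.0 ± 2.42 CPM in WT necrotic and 68.9 ± 15.7 CPM in WT viable libraries (log2 fold change -0.73). These genes were named for their likeness to the set, so their direction is no separate result and no test is given.

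The comparison of genotypes asked whether Mincle was needed for the class II response. KO minus WT, the difference of responses was negative for 8 of 9 genes, with log2 values of -0.42 for Cd74 (95% interval -0.69 to -0.16, unadjusted p = 0.00375), -0.40 for H2-Ab1 (95% interval -0.64 to -0.17, unadjusted p = 0.00239), -0.31 for H2-Aa (95% interval -0.57 to -0.04, unadjusted p = 0.0259) and -0.31 for Ciita (95% interval -0.64 to 0.02, unadjusted p = 0.0612). After edgeR's quasi-likelihood test with adjustment over all genes, 0 of 9 passed, and 0% of all genes did (adjusted p = 0.571 for both Cd74 and H2-Ab1). At an unadjusted p under 0.05 edgeR counted 3 of the 9 genes, all negative, and 1064 of all genes, or 7.52%, while DESeq2 and limma voom called 0 of the 9 and 0 of all genes after adjustment. Without the filter on low counts, edgeR called 2 of the 9 in this contrast, Cd74 (adjusted p = 3.62e-05) and H2-Ab1 (adjusted p = 0.00441), among 209 of 25720 genes. The intervals of H2-Eb1 (-0.47 to 0.06), H2-DMa (-0.39 to 0.01) and H2-DMb1 (-0.19 to 0.24) reached both sides of 0 and did not separate the genotypes.

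Under viable supernatant 0 of the 9 genes passed between KO and WT cells, where 5.84% of all genes were called in either direction. Ciita averaged 12.3 ± 0.588 CPM in KO viable and 10.4 ± 1.21 CPM in WT viable libraries (SD, n = 3 each; log2 fold change 0.24, SE 0.10, adjusted p = 0.178). It was the single gene of the set at an unadjusted p under 0.05 by edgeR, where 23.8% of all genes were at that level. DESeq2 and limma voom called 0 of the 9 as well, where they called 1149 and 891 of 14153 genes. Ciita and H2-Oa were higher in every KO viable than in every WT viable library, 2 of 9 genes where 13.5% of all genes had that pattern. For H2-Ab1, H2-Aa, H2-Eb1 and Cd74 the log2 fold changes lay between -0.09 and 0.05.

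Under necrotic supernatant Cd74 and H2-Ab1 were lower in KO than in WT cells, 2 of 9 genes where 3.12% of all genes were called lower. Cd74 averaged 103 ± 1.75 CPM in KO necrotic and 148 ± 18.5 CPM in WT necrotic libraries (SD, n = 3 each; log2 fold change -0.52, SE 0.09, adjusted p = 0.00485), and H2-Ab1 32.6 ± 1.90 CPM in KO necrotic and 42.6 ± 5.18 CPM in WT necrotic libraries (log2 fold change -0.39, SE 0.08, adjusted p = 0.0129). H2-Aa (log2 fold change -0.26, adjusted p = 0.0886) and H2-Eb1 (log2 fold change -0.25, adjusted p = 0.1005) had values of the same sign that did not pass, and Ciita had a log2 fold change of -0.07 (adjusted p = 0.732). H2-Ab1, H2-Aa, Cd74 and H2-DMa were lower in every KO necrotic than in every WT necrotic library, 4 of 9 genes against 14.8% of all genes. The call of H2-Ab1 was lost without WT necrotic replicate 2 (log2 fold change -0.28, adjusted p = 0.0669) and without KO necrotic replicate 1 (log2 fold change -0.34, adjusted p = 0.0805), which left a count of 1, and without WT necrotic replicate 3 the count was 4, with H2-Aa (log2 fold change -0.34, adjusted p = 0.0305) and H2-Eb1 (log2 fold change -0.36, adjusted p = 0.0150) added. Over all genes, 1150 were called in either direction with all libraries. That number was 250 without WT necrotic replicate 2, 163 without KO necrotic replicate 1 and 1380 without WT necrotic replicate 3. These contrasts share their libraries with the response contrasts and are not separate evidence.

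**Figure D3:**
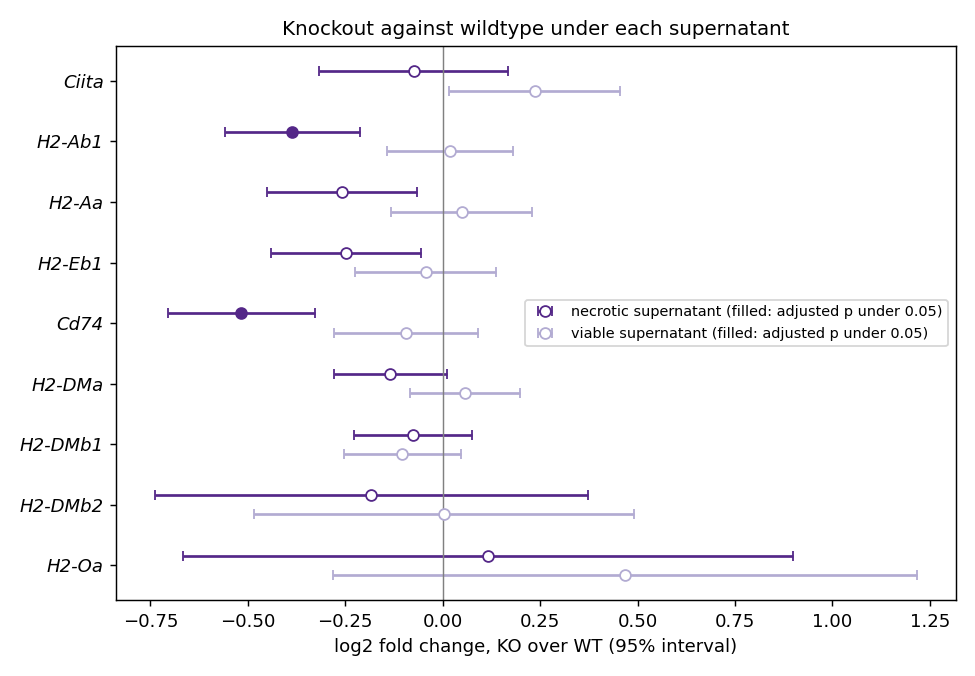
Log2 fold change of each gene, KO over WT, with its 95% interval, under necrotic (upper, dark) and viable (lower, pale) supernatant; filled points passed an adjusted p of 0.05. Cd74 (-0.52) and H2-Ab1 (-0.39) are the filled points, both under necrotic supernatant.

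The set lies mostly in 1 interval of chromosome 17, from H2-Oa to H2-Ea (GRCm38 chr17:34092340-34344645), which holds 19 annotated genes, 14 of them tested. Of the 7 tested genes in it that are no members, 0 were higher in either genotype, 0 were lower in WT and 1 was lower in KO cells. That gene was H2-Ob, the beta chain partner of H2-Oa. H2-Ob measured 0.909, 1.04 and 1.21 CPM in KO necrotic libraries, against 2.20, 1.76 and 1.86 CPM in KO viable libraries (log2 fold change -0.88, adjusted p = 0.0343), with a WT log2 fold change of -0.61 (adjusted p = 0.125). The class I genes between the class II genes did not pass. Tap1, a peptide transporter subunit, had log2 fold changes of -0.06 in KO and 0.00 in WT cells. Tap2 had 0.13 in KO (adjusted p = 0.320) and 0.23 in WT cells (adjusted p = 0.0542, near the threshold). The immunoproteasome genes had log2 fold changes of 0.06 in KO and 0.07 in WT cells for Psmb9, and of 0.03 in KO and 0.07 in WT cells for Psmb8. Brd2, which overlaps H2-DMa, had log2 fold changes of 0.01 in KO and -0.02 in WT cells. H2-Eb2 held 0 to 7 counts per library and was not tested.

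**Figure D4:**
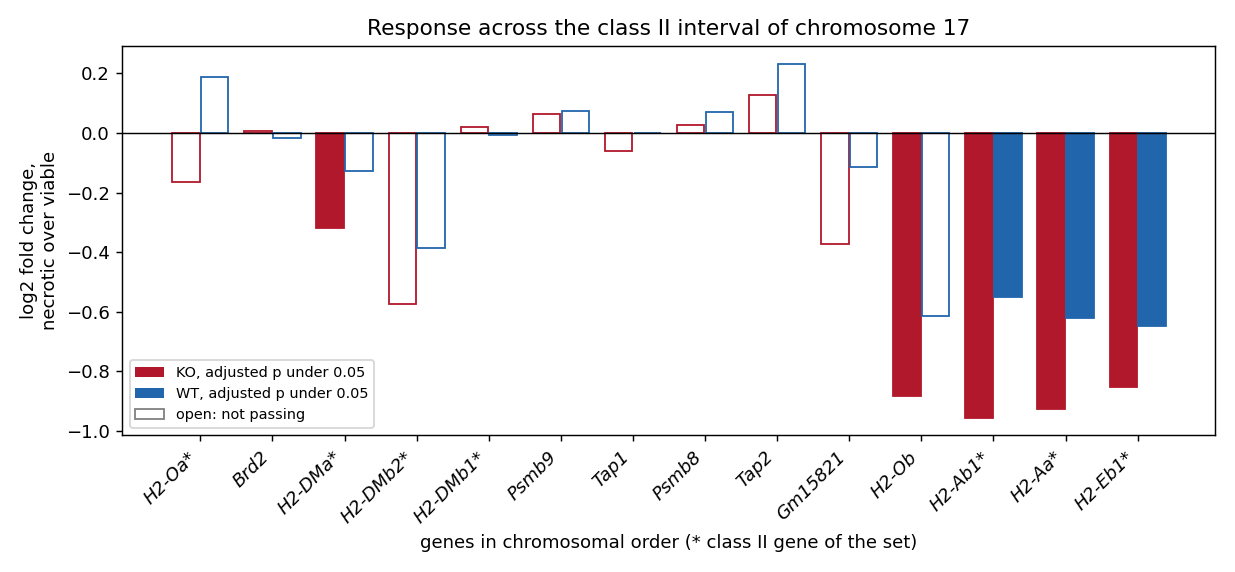
Log2 fold change, necrotic over viable, of the 14 tested genes of the class II interval in chromosomal order, KO left and WT right in each pair, with filled bars for an adjusted p under 0.05 and an asterisk for members of the set. The filled bars are H2-DMa and H2-Ob in KO cells and H2-Ab1, H2-Aa and H2-Eb1 in both genotypes, and the bars of Brd2, Psmb9, Tap1 and Psmb8 stay near 0.

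The lists below are read against all genes tested, of which 7.43% were called in either direction in KO cells and 9.31% in WT cells. By edgeR, 22.2% of all genes in KO and 25.3% in WT cells had an unadjusted p under 0.05. With the low-count filter, 0 genes passed for the KO minus WT response. A call in 1 genotype alone is therefore not read as a difference between genotypes. The RNA of proteins that bind class II promoters was measured first. Of Rfx5, Rfxap, Rfxank, Nfya, Nfyb, Nfyc and Creb1, 0 of 7 passed in KO cells by edgeR (0 at an unadjusted p under 0.05; median log2 fold change -0.03) and 1 of 7 was lower in WT cells (median -0.07). That one was Nfyb, an NF-Y subunit, at 19.3 ± 0.899 CPM in WT necrotic and 23.2 ± 1.84 CPM in WT viable libraries (SD, n = 3 each; log2 fold change -0.27, adjusted p = 0.0372), against a KO log2 fold change of 0.08 (adjusted p = 0.598). Rfx5, the DNA-binding subunit of RFX, had log2 fold changes of -0.05 in KO (adjusted p = 0.789) and -0.26 in WT cells (adjusted p = 0.0840).

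Among 13 regulators of Ciita, 12 were tested, 2 were lower in KO and 1 was lower in WT cells, and 0 were higher in either. At an unadjusted p under 0.05 by edgeR, 5 were lower and 1 higher in KO cells, and 2 were lower and 2 higher in WT cells. Zbtb32, a transcriptional repressor of the BTB zinc finger family, fell in both. It measured 1.62, 1.66 and 1.93 CPM in KO necrotic libraries, against 3.73, 4.36 and 3.32 CPM in KO viable libraries (log2 fold change -1.11, adjusted p = 0.00157). It measured 1.79, 1.62 and 2.11 CPM in WT necrotic libraries, against 4.02, 5.26 and 4.76 CPM in WT viable libraries (log2 fold change -1.33, adjusted p = 3.59e-04). Irf4, a lymphoid and myeloid interferon regulatory factor, averaged 6.78 ± 0.380 CPM in KO necrotic and 9.38 ± 1.73 CPM in KO viable libraries (SD, n = 3 each; log2 fold change -0.47, adjusted p = 0.0268). Ifng, the cytokine that induces Ciita in macrophages, had 1 count in the 12 libraries together. Irf1, an interferon-induced activator of Ciita, had a log2 fold change of 0.14 in WT cells (adjusted p = 0.116). In KO cells Irf1 averaged 63.9 ± 3.02 CPM in necrotic and 65.0 ± 3.43 CPM in viable libraries.

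Most other genes of the pathway did not pass. Of 8 genes of class II processing and turnover, 1 was higher and 1 lower in KO cells, and 2 were higher and 0 lower in WT cells, with median log2 fold changes of -0.03 in KO and 0.05 in WT cells. Ifi30, the thiol reductase of the endosome, rose in both (log2 fold change 0.23, adjusted p = 0.0145 in KO; 0.34, adjusted p = 0.00160 in WT), and Lgmn, an asparaginyl endopeptidase, rose in WT cells (log2 fold change 0.29, adjusted p = 0.00926). March1, a ubiquitin ligase that sends class II to degradation, fell in KO cells (log2 fold change -0.22, adjusted p = 0.0498). Ctss, the cathepsin that trims the invariant chain, had a log2 fold change of 0.08 in WT cells (adjusted p = 0.418).

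Of 6 costimulatory ligand and receptor genes, 2 were lower in KO cells, Cd274 (PD-L1; log2 fold change -0.48, adjusted p = 0.00646) and Icosl (log2 fold change -0.36, adjusted p = 0.0356), and by edgeR 0 passed in WT cells (1 at an unadjusted p under 0.05), where Cd274 had a log2 fold change of -0.25 (adjusted p = 0.1004). Of 7 class I heavy chain and loading genes, 1 was lower in KO cells, Tapbp, the gene of tapasin (log2 fold change -0.24, adjusted p = 0.0130), and by edgeR 0 passed in WT cells (1 lower and 1 higher at an unadjusted p under 0.05), with median log2 fold changes of -0.05 in KO and -0.04 in WT cells. H2-K1, a class I heavy chain, had a log2 fold change of -0.05 in WT cells (adjusted p = 0.645).

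Some markers of cells that carry class II were lower as well, most of those tested did not pass, and their part in the result was not tested. Dendritic cell markers summed over 10 genes to 25.2 to 27.9 CPM in KO necrotic and 31.7 to 36.1 CPM in KO viable libraries, and to 24.9 to 28.0 CPM in WT necrotic and 33.1 to 35.7 CPM in WT viable libraries. Of 9 tested, 2 were lower in each genotype and 7 did not pass. At an unadjusted p under 0.05 by edgeR, 4 were lower and 0 higher in each genotype. Over all genes, 22.2% in KO and 25.3% in WT cells were at that level in either direction. Dpp4 did not pass in either genotype. It averaged 1.26 ± 0.460 CPM in KO necrotic and 2.42 ± 0.399 CPM in KO viable libraries (SD, n = 3 each). In WT cells it averaged 1.14 ± 0.500 CPM in necrotic and 2.16 ± 0.154 CPM in viable libraries. Flt3, a cytokine receptor of dendritic cell precursors, did not pass either (log2 fold change -0.02, adjusted p = 0.948 in KO; -0.04, adjusted p = 0.912 in WT). Cd209a, a lectin of monocyte-derived dendritic cells, fell in both (1.02 ± 0.272 CPM in KO necrotic and 3.09 ± 0.507 CPM in KO viable libraries, SD, n = 3 each; log2 fold change -1.62, adjusted p = 9.58e-04 in KO; -1.49, adjusted p = 0.00181 in WT). Siglech passed in KO cells (log2 fold change -1.01, adjusted p = 0.0336) and not in WT cells (log2 fold change -0.85, adjusted p = 0.0587). Itgax, the gene of CD11c, passed in WT cells (log2 fold change -0.34, adjusted p = 0.0195) and not in KO cells. It averaged 10.6 ± 0.526 CPM in KO necrotic and 12.5 ± 0.318 CPM in KO viable libraries.

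B cell markers summed over 8 genes, mostly Ighm, to 43.3 to 46.4 CPM in KO necrotic and 63.5 to 78.3 CPM in KO viable libraries, and to 44.1 to 59.8 CPM in WT necrotic and 56.1 to 65.7 CPM in WT viable libraries. Of 5 tested, 1 was lower in KO cells, Ighm (log2 fold change -0.65, adjusted p = 0.00253), and 2 were lower in WT cells, among them Cd79a (log2 fold change -1.25, adjusted p = 0.0287). Defining markers were scarce: Ms4a1 held 0 to 12 counts per library and Pax5 0 to 24, and no marker of the list was at 0 in all 12 libraries. T cell markers summed over 6 genes, mostly Cd4, to 10.99 to 12.3 CPM in KO necrotic, 16.2 to 17.1 CPM in KO viable, 12.1 to 12.8 CPM in WT necrotic and 13.1 to 16.2 CPM in WT viable libraries. Cd3e held 0 to 3 counts per library, and Cd4, the 1 tested gene of that list, was lower in KO cells (log2 fold change -0.55, adjusted p = 0.00194) and did not pass in WT cells (log2 fold change -0.27, adjusted p = 0.0637).

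Osteoclast markers and some macrophage markers were higher, and their part in the class II result was not tested either. Of 11 macrophage markers, 5 were higher, 1 was lower and 5 did not pass in KO cells, and 6 were higher, 1 was lower and 4 did not pass in WT cells. C1qa, a complement component, had log2 fold changes of 0.46 in KO (adjusted p = 0.00382) and 0.65 in WT cells (adjusted p = 3.59e-04), while Cx3cr1 was the lower one in both, with log2 fold changes of -1.04 in KO (adjusted p = 9.89e-05) and -0.77 in WT cells (adjusted p = 6.15e-04). All 10 osteoclast markers were higher in both genotypes, with a median log2 fold change of 0.38 in each. Among them Acp5, the tartrate-resistant acid phosphatase, had log2 fold changes of 0.39 in KO (adjusted p = 1.04e-04) and 0.51 in WT cells (adjusted p = 1.25e-05). Of 6 tested stromal and bone markers, 0 passed in KO cells by edgeR (3 at an unadjusted p under 0.05) and 3 were lower in WT cells, Alpl, Col1a2 and Col3a1, and their summed level was 19.2 to 35.6 CPM in KO necrotic, 24.2 to 45.8 CPM in KO viable, 30.4 to 45.05 CPM in WT necrotic and 59.5 to 92.4 CPM in WT viable libraries.

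**Figure D5:**
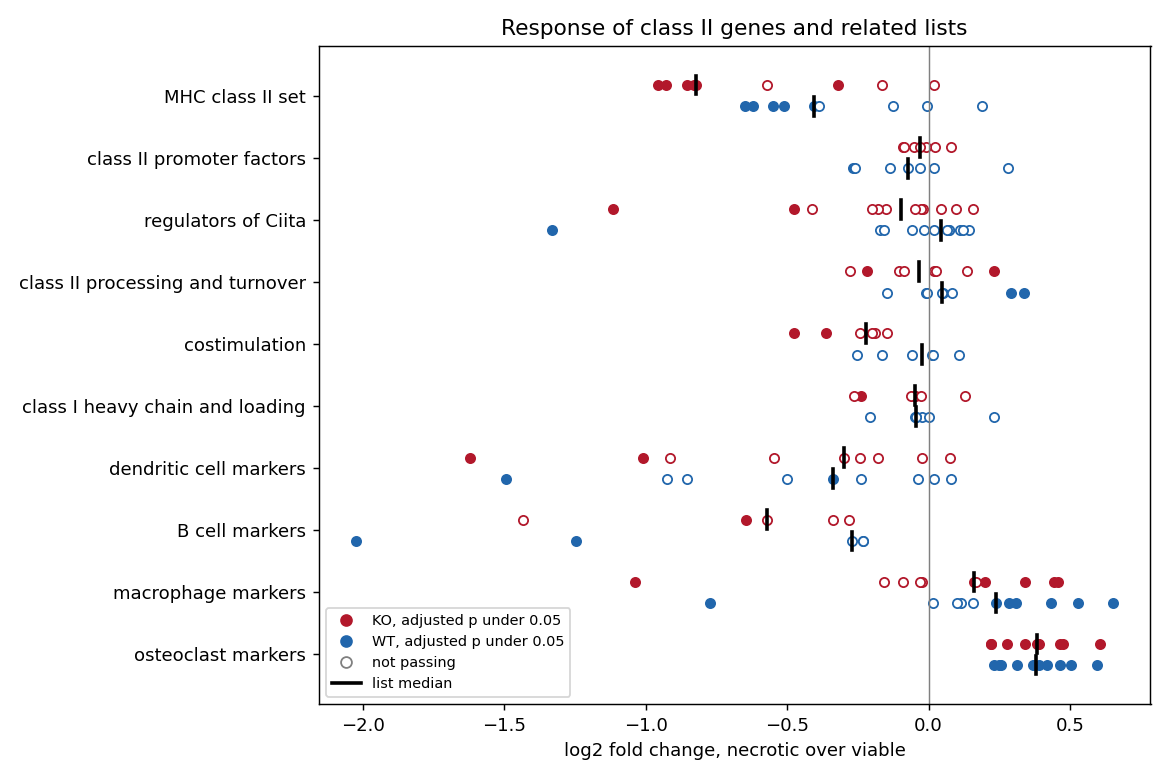
Log2 fold change, necrotic over viable, of the tested members of the class II set and 9 related lists, with KO above WT in each list, filled points for an adjusted p under 0.05 and a black bar at the list median. The class II set has medians of -0.82 in KO and -0.40 in WT cells, promoter factors, processing and class I lists lie near 0, and all osteoclast markers are filled and above 0.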

How the data were processed

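Messenger RNA of 12 osteoclast libraries was analysed from 1 table of raw counts per gene that the authors deposited, whole numbers for 46983 genes without normalization. HISAT2 2.0.5, HTSeq 0.6.1 and CASAVA are named, with the build GRCm38, per the submitters' processing notes. No source used here gives the annotation release, the strand setting or the handling of reads that map to several places. Groups and replicate numbers were read from the sample titles. Symbols, positions and exon lengths came from GENCODE M21, which matched 46488 of the identifiers and left 495 unmatched, and promoters from RefSeq on GRCm38.p6.

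In R 4.3.3 with edgeR 4.0.16, filterByExpr retained 14153 genes, and TMM factors scaled the libraries. A quasi-likelihood model with 4 group means, fitted to all 12 libraries (8 residual degrees of freedom, biological coefficient of variation 7.18%), gave two-sided tests for 5 contrasts, adjusted by the Benjamini-Hochberg method over all genes tested with a threshold of 0.05. Standard errors (SE) were taken as the absolute log2 fold change over the root of F. Ratios of 2 genes were compared by exact permutation over libraries. Correlations used log2 CPM with a prior count of 2. The fit was tested on simulated counts drawn from the mean of each gene over all 12 libraries. In WT necrotic libraries alone, 100 genes were changed 1.5-fold and 100 changed 2-fold. Over 13986 genes, 94 and 100 of them were called in the contrast of WT necrotic against WT viable. In the KO minus WT response, 75 and 93 were called. The changed genes were drawn from those with a mean of at least 5 CPM, above the levels of H2-DMb2 and H2-Oa. The Benjamini-Hochberg cut-off depends on how many genes change, and in the measured KO minus WT response 0 genes were called. These simulated counts therefore do not give the power for the 9 genes.

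All 9 genes of the set are described. Of the lists (other class II genes, promoter factors, regulators of Ciita, processing and turnover, costimulation, class I, and markers of dendritic, B, T, macrophage, osteoclast and stromal or bone cells), the genes named come from the 4 with the smallest p in a contrast, together with genes of the chromosome 17 interval and scarce defining markers named after their counts were seen, and 5 genes each are named for likeness to the classical chains with Cd74 and to Ciita. Flt3 was named outside this rule, as a marker that did not pass. The members and lists were chosen with earlier results of these data known, and the motifs after the sequences had been seen. Counting error sets a limit of 3 counts for a count of 0, which was 0.0598 to 0.185 CPM over the libraries. Alternatives were scaling by median ratio or upper quartile, DESeq2 1.42.0 or voom of limma 3.58.1 as the test, no filter or a minimum of 5 CPM in 3 libraries, a fit of the 2 compared groups only, the replicate number as a block, leaving out each library, and, chosen after seeing the data, the deepest library thinned and length and GC trends removed.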

Additional observations from a re-analysis of the deposited data

How the results depend on the processing

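The counts of genes of the set past the threshold were 6 in KO and 5 in WT cells for necrotic against viable supernatant under all 10 alternatives other than leaving out a library, including the alternatives chosen after seeing the data (WT viable replicate 3 thinned, and length and GC trends removed). Leaving out each library in turn gave 5 to 6 in KO and 4 to 5 in WT cells, 0 to 0 for the KO minus WT response, 0 to 0 for KO against WT under viable supernatant and 1 to 4 under necrotic supernatant. Without the low-count filter (25720 genes tested) the KO minus WT response had 2 of the 9 genes, H2-Ab1 and Cd74, among 209 genes called, and KO against WT under necrotic supernatant had 4, with H2-Aa and H2-Eb1 added; the cause was not tested. DESeq2 called 3 in the last contrast, with H2-Aa added (adjusted p = 0.0481), among 1350 genes called. Of 968 values of single genes under the 22 alternatives, 955 stayed on the same side of the threshold, 6 lost their call, 7 gained one and 0 called values changed sign, while 30 changed sign where neither value had passed. Over all genes, 1052 were called in KO and 1318 in WT cells with all groups in the fit, against 1820 in KO and 359 in WT cells with the compared groups alone, and 827 were called between KO and WT under viable supernatant, against 449 with the compared groups alone and 1618 without the filter. Under necrotic supernatant 1150 were called between KO and WT, against 1857 without the filter and 717 with length and GC trends removed. Leaving out a library moved these counts to between 383 and 1277 in KO cells, 385 and 2015 in WT cells, 227 and 1060 under viable supernatant and 163 and 1605 under necrotic supernatant. Deviations from group means of same-numbered libraries correlated between -0.255 and 0.143. They were over 0.1 in 2 of 18 pairs, both of WT viable with KO viable. Differently numbered libraries were not compared, so these values cannot decide whether the replicate numbers pair the samples. With the replicate block, 6 genes of the set passed in KO and 5 in WT cells, 0 for the KO minus WT response, 0 under viable and 2 under necrotic supernatant, and the counts over all genes were 947 in KO and 1231 in WT cells. Depth limits H2-Oa and H2-DMb2, with 5 to 18 and 20 to 78 counts per library.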
